A study of Mus musculus with 42 samples.

Results

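The spread between libraries of the same age and zeitgeber time was compared between macrophages of aged and young mice, gene by gene. All 42 libraries of the series entered the comparison, and the quantity of interest was how far the libraries of a group lay from each other, not how high a gene was. C57BL/6 mice were 2 to 3 months old in the young and 18 to 20 months old in the aged groups. Sampling covered a day at 7 zeitgeber times (ZT, hours after the lights come on), every 4 h between ZT0 and ZT24. With 3 libraries per age and time this gave 14 groups and 21 libraries per age. The labels name no treatment and no genetic change. Nor do they give the body site of the macrophages. Whether each library came from its own animal is not stated either, so the spread, and every p-value drawn from it, may hold technical variation, variation between animals, or both. Of 47643 genes in the tables, 12080 had a mean of at least 10 reads after the libraries were put on a common scale, and these were tested.

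Libraries of the same tissue differ for several reasons. Counting error sets a floor that falls as reads rise, preparation of cells and RNA adds to it, and animals differ in the state of their macrophages and in the mixture of cells that is taken along. Genes of alternative activation, of acute phase reactions and of cell division are known to be switched on and off in macrophages by signals from outside, and genes of other leukocytes follow the number of these cells in a preparation. In RNA from whole preparations, fewer cells of a type and less RNA per cell cannot be told apart.

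The markers of macrophages were measured in each library. All 20 genes of the macrophage core list (Adgre1, Csf1r, Cd68 and others) passed the filter, and their summed reads ranged from 291040 to 399673 (young) and from 229975 to 376771 (aged). All 22 genes of a list for resident macrophages of the peritoneal cavity passed too. Depth ranged from 7433159 to 13574542 reads over the young libraries (median 9847012) and from 4864402 to 15587030 over the aged ones (median 8159784). The aged libraries were therefore less even in depth, and the spread that counting alone would give had a median over groups and genes of 0.107 in aged and 0.0971 in young cells.

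The typical gene varied more in aged cells. Spread is given as the SD of log2(reads + 1) over the 3 libraries of a group, and for each age as the pooled SD, the root of the mean variance over the 7 times, with 14 degrees of freedom. The median pooled SD over genes was 0.268 in young and 0.309 in aged cells, and the median of the ratio per gene was 1.15-fold. The pooled SD was larger in aged cells for 8014 genes, which is 66.3% of those tested. Genes share libraries and are not replicates, so no test was made over genes.

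Each group was also given a single value, the median SD over genes. In young cells it was 0.226 at ZT0, 0.262 at ZT4, 0.228 at ZT8, 0.213 at ZT12, 0.223 at ZT16, 0.209 at ZT20 and 0.218 at ZT24. In aged cells it was 0.265, 0.254, 0.289, 0.249, 0.285, 0.247 and 0.239 at the same times. The aged group was the more spread at 6 of 7 times, and ZT4 was the exception. The mean over times was 0.226 ± 0.0176 (SD, n = 7 times) in young and 0.261 ± 0.0192 in aged cells, a difference of 0.0353 (two-sided exact permutation test swapping the ages within times, p = 0.03125, where the smallest possible p is 0.015625). Leaving out any time but ZT4 left p at 0.0625 by the exact test, which is above the threshold.

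**Figure D1:**
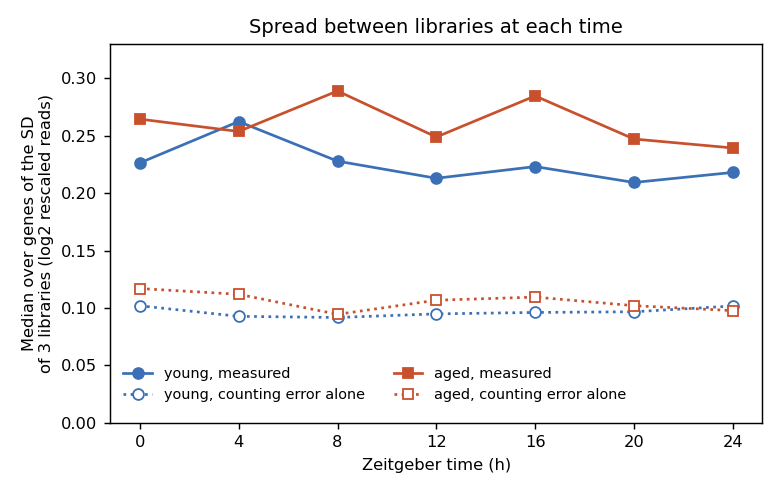
Median over 12080 genes of the SD of 3 libraries (vertical axis, log2 rescaled reads) at each zeitgeber time (horizontal axis, h) in young (circles) and aged (squares) cells; open symbols give the spread that counting error alone would give. The aged line lies above the young line at 6 of 7 times, and the counting lines lie at about the same height.

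Some markers of other cells were more spread in aged cells and others were not. The mean score of T and NK cell markers (19 of 24 tested, none at 0 in every library of an age) had a pooled SD of 0.273 in young and 0.844 in aged cells, and their summed reads ranged from 943 to 1591 (young) and from 780 to 5018 (aged). The B cell score (19 of 20 tested) had a pooled SD of 0.220 and 0.396, and the summed reads ranged from 16552 to 30166 (young) and from 19500 to 62791 (aged). The mast cell score had 0.555 and 0.533, with 12 of 14 markers tested and summed reads of 1665 to 3463 in young and 1714 to 4345 in aged libraries. The dendritic cell score (9 of 12 tested) had a pooled SD of 0.182 in young and was 2.74 times as wide in aged cells. The adipocyte score, which rests on only 2 of 9 markers, had 0.350 and 0.720. The neutrophil (6 of 15 tested, 0.482 and 0.390) and erythroid and platelet scores (5 of 14 tested, 2.41 and 1.07) were wider in young cells. The deviations of the T and NK cell, B cell and mast cell scores were then regressed out of every gene. The difference in median SD between the ages fell from 0.0353 to 0.0150 (exact permutation test, p = 0.266). The share of genes with the larger pooled SD in aged cells fell to 57.5%, and the median ratio on the log2 scale fell from 0.20 to 0.09. Each score was fitted over all 42 libraries together, and the T and NK cell and B cell scores were themselves wider in aged libraries. The fit can thus take more from the aged side, so part of the fall may be built in. Cell mixture as its cause was not tested.

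The excess of spread was found at high read counts more than at low ones. Among the 1718 genes with 10 to 30 reads the median ratio of the pooled SD was 1.04-fold, and 54.6% of genes were more spread in aged cells. Among the 3172 genes with 100 to 300 reads the ratio was 1.12-fold and the share 64.5%. Among the 1637 genes with 1000 or more reads the ratio was 1.31-fold and the share 78.8%, with median pooled SDs of 0.141 in young and 0.185 in aged cells against a counting SD of 0.0328 and 0.0361. Counting error was thus a small part of the spread where the ages differed by the largest ratio.

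Single genes were tested with limma on the log2 of the 14 group SDs, each with an offset of 0.1 added. Time was a factor, and Benjamini-Hochberg adjustment was over all 12080 genes. A limma fold is thus a ratio of SDs with the offset and differs from the ratio of pooled SDs. At an adjusted p under 0.05, 38 genes had the larger spread in aged cells, which is 0.315% of those tested, and 0 genes (0%) had the larger spread in young cells. At an unadjusted p under 0.05 these counts were 1038 (8.59%) and 147 (1.22%). A ratio of pooled variances called 57 genes (0.472%) and 7 genes (0.0579%), and edgeR's quasi-likelihood dispersions called 25 and 0. Of the 38 genes, 19 were among the 57 and 10 among the 25, so the methods named different genes in large part. Among the 38 genes, 24 were more spread in the aged group at all 7 times and 14 at 6 of 7 times. Over all tested genes 2.28% were more spread in the aged group at all 7 times and 0.397% at 0 of 7. The pooled SD was at least 2-fold larger in aged cells for 678 genes (5.61%) and in young cells for 91 genes (0.753%). The ratios of pooled SD of the 38 called genes ran from 1.73 to 6.32, with a median of 2.94. The highest ratio is that of Trim43a, which had nearly no reads in young cells, and the next is Marco at 4.85. With a mean of at least 10 reads asked in each age, 31 genes were called, all among the 38. The list of calls was less stable than the direction. Leaving out 1 library moved the count of 38 to between 8 and 53, with 8 calls without aged ZT0 replicate 2, 17 without young ZT16 replicate 2, 21 without aged ZT4 replicate 3, 22 without aged ZT24 replicate 1, 24 without young ZT0 replicate 3, aged ZT8 replicate 2, aged ZT20 replicate 3 or aged ZT24 replicate 3, and 25 without young ZT12 replicate 3, aged ZT8 replicate 3, aged ZT12 replicate 2 or aged ZT16 replicate 1. The calls of Marco, Saa3, Cd209f, Folr2 and Lyve1 held with any 1 of the 42 libraries left out. So did that of Trim43a, where the young SD is set by the lack of reads. Other settings were harder on these calls. When the variance that counting gives was subtracted, the calls of Cd209f and Lyve1 were lost. Without the trend in the limma fit, those of Marco, Cd209f, Folr2 and Lyve1 were lost.

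**Figure D2:**
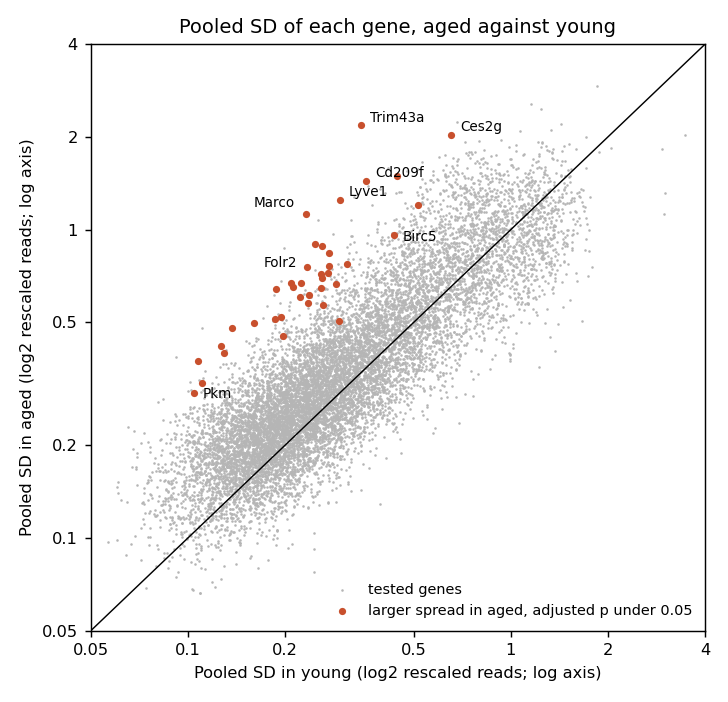
Pooled SD of each gene in aged (vertical) against young cells (horizontal), both in log2 rescaled reads on log axes; grey points are the tested genes, red points the 38 genes called by limma, and the line marks equal spread. The cloud lies above the line for 66.3% of genes, and the called genes lie 1.73 to 6.32 times above it, where the highest, Trim43a, had nearly no reads in young cells.

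Marco, a scavenger receptor for bacteria and particles, had the lowest p. In young cells its reads had a lowest value of 2914, a median of 4466 and a highest value of 5455 over the 21 libraries, and in aged cells these were 1075, 3182 and 16253. At ZT16 the young libraries held 5455, 4993 and 4997 reads and the aged libraries 13354, 6850 and 1075. At ZT24 the young libraries held 3262, 4435 and 3210 and the aged libraries 16253, 3669 and 1548. The aged libraries thus lay on both sides of the young range at the same time of day. The pooled SD rose from 0.232 in young to 1.12 in aged cells (limma on the log2 of group SDs with the offset, fold 3.13, log2 estimate 1.65 ± 0.26 SE, adjusted p = 3.0e-05). The level did not pass the test (log2 difference -0.33, limma adjusted p = 0.294).

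Saa3, a serum amyloid A protein of the acute phase reaction made by macrophages, combined a higher level with a wider spread. Its reads had a lowest value of 14472, a median of 20279 and a highest value of 35048 in young cells, and 18202, 72931 and 173276 in aged cells. At ZT24 the young libraries held 19688, 19874 and 32545 reads and the aged libraries 168965, 64074 and 28432. All aged libraries but 1 each of ZT16, ZT20 and ZT24 lay above the whole young range. The pooled SD was 0.247 in young and 0.897 in aged cells (limma fold 3.24, adjusted p = 3.0e-05), and the level was higher by 1.70 on the log2 scale (limma adjusted p = 9.47e-10). Saa3 was the only called gene whose call also held in every other setting that tested it, with adjusted p-values from limma, the F ratio or edgeR up to 0.0411.

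The deviations of Marco and Saa3 from their group means went together in aged cells. Pearson's r between them was 0.79 over the 21 aged libraries and -0.33 over the 21 young ones, given as a description without a test. Called genes were chosen for a larger spread in these aged libraries. A weaker r in young libraries may thus be built in, here and for the pairs of called genes below. Hp, haptoglobin, and Lbp, the lipopolysaccharide binding protein, are further acute phase genes on the list of calls, and their r with each other was 0.80 in aged and 0.40 in young libraries. Hp had a pooled SD of 0.259 in young and 0.717 in aged cells, and Lbp 0.137 and 0.480. Their calls were less stable than those of Marco and Saa3. That of Hp was lost without 27 and that of Lbp without 16 of the 42 libraries, left out in turn. At ZT24 the aged libraries held 2030, 879 and 329 reads of Hp, in the same order as their reads of Marco and Saa3.

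**Figure D3:**
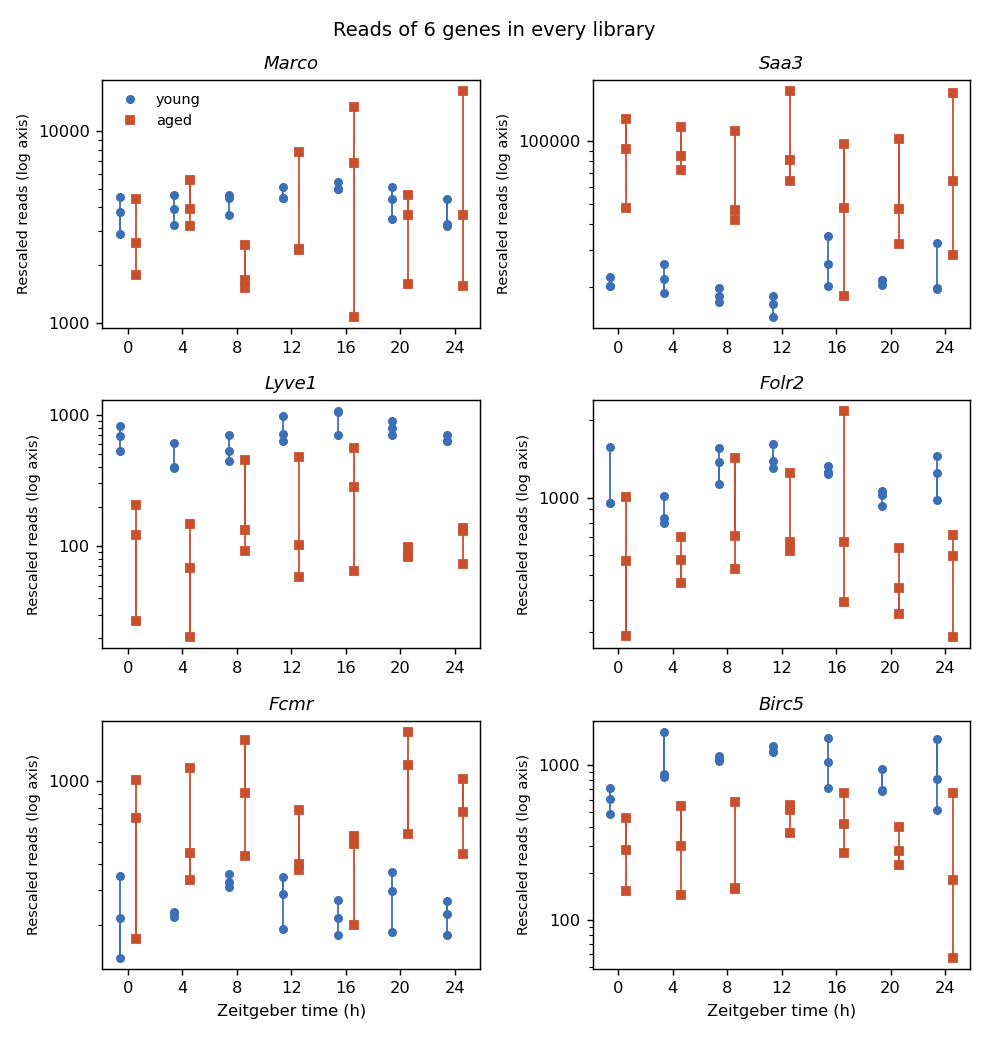
Rescaled reads (vertical, log axis) of Marco, Saa3, Lyve1, Folr2, Fcmr and Birc5 in each library at each zeitgeber time (horizontal, h), young as circles and aged as squares, with a line joining the 3 libraries of a group. The lines of the aged groups are longer than those of the young groups of the same time at 6 or 7 of 7 times for each of the 6 genes.

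A set of called genes belongs to the programme of alternatively activated and tissue-settled macrophages. Folr2 encodes a folate receptor, Lyve1 a receptor for hyaluronan, Cd209f and Mgl2 lectins that bind sugars, Retnla a secreted protein induced by interleukin-4, F13a1 a subunit of a clotting factor and Igf1 a growth factor. The set was named after its values were seen. All of them were lower in aged cells, by 0.89 (Folr2) to 2.53 (Lyve1) on the log2 scale, with limma adjusted p-values of level of 1.2e-05 or less.

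Lyve1 had a lowest value of 395, a median of 696 and a highest value of 1061 reads in young libraries and of 20.3, 103 and 561 in aged ones. At ZT16 the young libraries held 1061, 1057 and 696 reads and the aged libraries 561, 281 and 64.3, so the aged libraries lay below all young ones of that time and differed among themselves by a wide margin. Its pooled SD was 0.296 in young and 1.25 in aged cells (limma fold 2.83, adjusted p = 0.0015). At ZT20 the order was turned, with 82.7, 98.4 and 84.8 reads in the 3 aged libraries, an SD smaller than that of young cells.

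Folr2 had a lowest value of 795, a median of 1239 and a highest value of 1617 reads in young libraries and of 287, 618 and 2167 in aged ones. At ZT16 the aged libraries held 2167, 670 and 394 reads against 1261, 1324 and 1239 in young ones. A single aged library was the highest of all 42, while the other aged libraries of that time lay below the young. The pooled SD was 0.234 in young and 0.754 in aged cells (limma fold 2.61, adjusted p = 0.00136). Without ZT16 the call of Folr2 was lost.

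Cd209f had a lowest value of 95.1, a median of 233 and a highest value of 348 reads in young and of 8.67, 79.5 and 306 in aged libraries. At ZT12 the aged libraries held 211, 79.5 and 8.67 reads against 263, 316 and 348 in young ones. This gave a pooled SD of 0.357 in young and 1.44 in aged cells (limma fold 3.48, adjusted p = 0.000506). Retnla was among the most abundant transcripts, with a lowest value of 17859, a median of 33064 and a highest value of 44146 reads in young and of 6394, 16225 and 42298 in aged libraries. Its pooled SD was 0.259 and 0.646 (limma fold 2.29, adjusted p = 0.0122), and the call was lost without 8 of the 42 libraries, left out in turn. For Mgl2 the pooled SDs were 0.260 and 0.886, for F13a1 0.224 and 0.673 and for Igf1 0.208 and 0.673, with limma adjusted p-values of 0.00702, 0.0070 and 0.00443. With the variance that counting gives subtracted, the calls of Cd209f, Lyve1 and Mgl2 were lost. Those of Folr2, Retnla, F13a1 and Igf1 held in that setting.

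Within aged groups Cd209f, Folr2, Lyve1, F13a1, Mgl2, Retnla and Igf1 correlated positively in every pair. Over the 21 aged libraries their 21 pairs had r between 0.33 (Igf1 with Mgl2) and 0.83 with a median of 0.74, and over the 21 young libraries between -0.20 and 0.71 with a median of 0.38. In aged ZT8 replicate 2 Cd209f, Folr2, Lyve1, F13a1, Mgl2 and Retnla were each the highest of their group, with 306, 1425, 457, 2307, 540 and 42298 reads. The deviations of Cd209f had an r of 0.71 with the score of monocyte-derived macrophages, which contains Folr2, Retnla and F13a1, of 0.81 with the T and NK cell score and of -0.54 with the score of resident macrophages in aged libraries. With the B, T and mast cell scores regressed out, the calls of Cd209f, Folr2, Lyve1, Mgl2 and Retnla were lost. Those of Igf1 and F13a1 held, as did those of Marco and Saa3. The limit given above for this fit holds here too.

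Serpinb2, an inhibitor of plasminogen activators and a marker of resident macrophages of the peritoneal cavity, deviated against these genes. Its reads had a lowest value of 1266, a median of 1909 and a highest value of 3012 in young and of 709, 2966 and 6001 in aged libraries. At ZT8 the aged libraries held 2981, 709 and 2274 reads, and the library at 709 was replicate 2, where Folr2 was highest. The r of Serpinb2 with Folr2 was -0.64 in aged and -0.61 in young libraries. Its spread was a pooled SD of 0.238 in young and 0.614 in aged cells (limma fold 2.38, adjusted p = 0.00443). The call of Serpinb2 was lost in 9 of 31 other settings, among them without ZT8, with the ratio of pooled variances and with edgeR.

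Srm, Bzw2 and Ddost, put side by side after their values were seen, are called genes whose calls were less stable, lost without 22, 31 and 24 of the 42 libraries, left out in turn. Srm, spermidine synthase, had pooled SDs of 0.187 in young and 0.640 in aged cells, Bzw2, a regulator of translation, 0.108 and 0.376, and Ddost, a subunit of the enzyme that attaches sugars to proteins in the endoplasmic reticulum, 0.111 and 0.318. Srm had an r of 0.87 with Bzw2 and of 0.71 with Ddost in aged libraries, and of 0.33 and 0.28 in young ones. Cxcr4, a chemokine receptor that leukocytes carry, deviated against them, with an r of -0.81 with Srm in aged and of 0.00057 in young libraries. Cxcr4 had a pooled SD of 0.273 in young and 0.761 in aged cells, and at ZT12 its aged libraries held 993, 301 and 430 reads against 337, 356 and 399 in young ones.

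Pkm, pyruvate kinase of glycolysis, was more spread in aged cells at a level that did not pass the test. Its reads had a lowest value of 1663, a median of 1890 and a highest value of 2429 in young and of 1274, 1843 and 2313 in aged libraries. At ZT8 the young libraries held 1942, 1890 and 1954 reads and the aged libraries 2313, 1274 and 1882. The pooled SD was 0.104 in young and 0.295 in aged cells (limma fold 2.24, adjusted p = 0.00909), with a log2 difference in level of -0.10 (limma adjusted p = 0.278). The call of Pkm was lost in 10 of 31 other settings, among them without ZT8, with the ratio of pooled variances and with edgeR. Of the 38 called genes, 11 were higher and 14 lower in level in aged cells, where 12% and 11.7% of all tested genes were. Among the 10645 genes whose level differed by at most 0.5 on the log2 scale between the ages, fitted alone, 5 genes were called, all among the 38. Called genes that differed more in level, such as Saa3, Lyve1 and Folr2, did not enter this fit, so the 5 are not out of 38.

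B cell genes gave 3 of the calls. Fcmr, the receptor for immunoglobulin M, had a lowest value of 228, a median of 332 and a highest value of 467 reads in young and of 267, 645 and 1515 in aged libraries. At ZT0 the aged libraries held 1007, 267 and 737 reads and the young libraries 316, 228 and 452. Ighd, the constant region of immunoglobulin D, held 1055, 178 and 444 reads in the same aged libraries and 224, 174 and 234 in the young ones. The pooled SDs were 0.287 in young and 0.667 in aged cells for Fcmr (limma adjusted p = 0.0118), 0.260 and 0.695 for Ighd (adjusted p = 0.0274), and 0.274 and 0.839 for Cr2, a complement receptor of B cells (adjusted p = 0.0319). These calls were lost without 6, 15 and 23 of the 42 libraries, left out in turn. Fcmr and Ighd had an r of 0.82 each in aged libraries with the B cell score, taken without the gene itself. Their calls and that of Cr2 were lost when the B, T and mast cell scores were regressed out. The B cell score used there holds all 3 genes. Each was thus in part regressed on its own values, and nothing on their source is read from the loss. B cell genes are a sign of B cells in the preparations, and how many there were was not measured.

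Genes of mitosis were more spread in aged cells, while other lists of dividing cells were less uniform. Birc5, survivin, which acts in chromosome segregation, had a lowest value of 481, a median of 944 and a highest value of 1643 reads in young and of 57.2, 301 and 666 in aged libraries. At ZT24 the aged libraries held 57.2, 180 and 666 reads, more than the young libraries differed at 810, 1474 and 511. Its pooled SD was 0.435 in young and 0.958 in aged cells (limma adjusted p = 0.0274), and the call was lost without 19 of the 42 libraries, left out in turn. Melk, a kinase of dividing cells, had 0.446 and 1.5 (limma adjusted p = 0.0425), and its call was lost without 26 of the 42 libraries and when the variance that counting gives was subtracted. All 26 tested genes of the mitosis list had the larger pooled SD in aged cells, with a median ratio of 1.73-fold against 1.15-fold over all genes, and 1 of them, Birc5, was called. Of 27 genes of DNA replication 24 were more spread in aged cells (median 1.46-fold), and of 8 replication-dependent histones 4 were (median 0.916-fold). Top2a, a topoisomerase, missed the threshold with 0.419 and 0.898 (limma adjusted p = 0.0647). The mean level of Birc5 was lower in aged cells, by 1.63 on the log2 scale, and its call was lost when the variance that counting gives was subtracted.

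The other called genes fall in no single group, and they are named because they were called. Trim43a, of a family with near-identical copies, and Ces2g, a carboxylesterase, were almost silent in young cells, with means of 0.126 and 0.426 reads against 35.4 and 22.3 in aged cells. An SD near 0 was then set by the absence of reads, so the ratio of spread for these genes is a ratio to a floor. Trim43a held 3.18, 9.13 and 401 reads in the aged libraries of ZT16 and at most 1.01 in any young library. Hdc, histidine decarboxylase, known from mast cells, held 982, 1804 and 3299 reads in the aged libraries of ZT16 against 753, 1046 and 1131 in young ones (pooled SD 0.194 in young and 0.519 in aged cells, limma adjusted p = 0.016). Pf4, platelet factor, held 7544, 16586 and 5659 reads in the same aged libraries against 24075, 24621 and 24306. The extracellular matrix genes Vcan and Tgfbi had pooled SDs of 0.515 and 0.126 in young and of 1.20 and 0.419 in aged cells. In 2 of the 38 genes, Tgfbi and Olfm1, a single group held the larger part of the squared deviations in aged cells, 50.9% for Olfm1. The remaining calls were Ahnak2, Actn1, Mir142hg, Alcam, Cbr2, Ly6a, Pla2g7, Nxpe5 and Dab2.

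**Figure D4:**
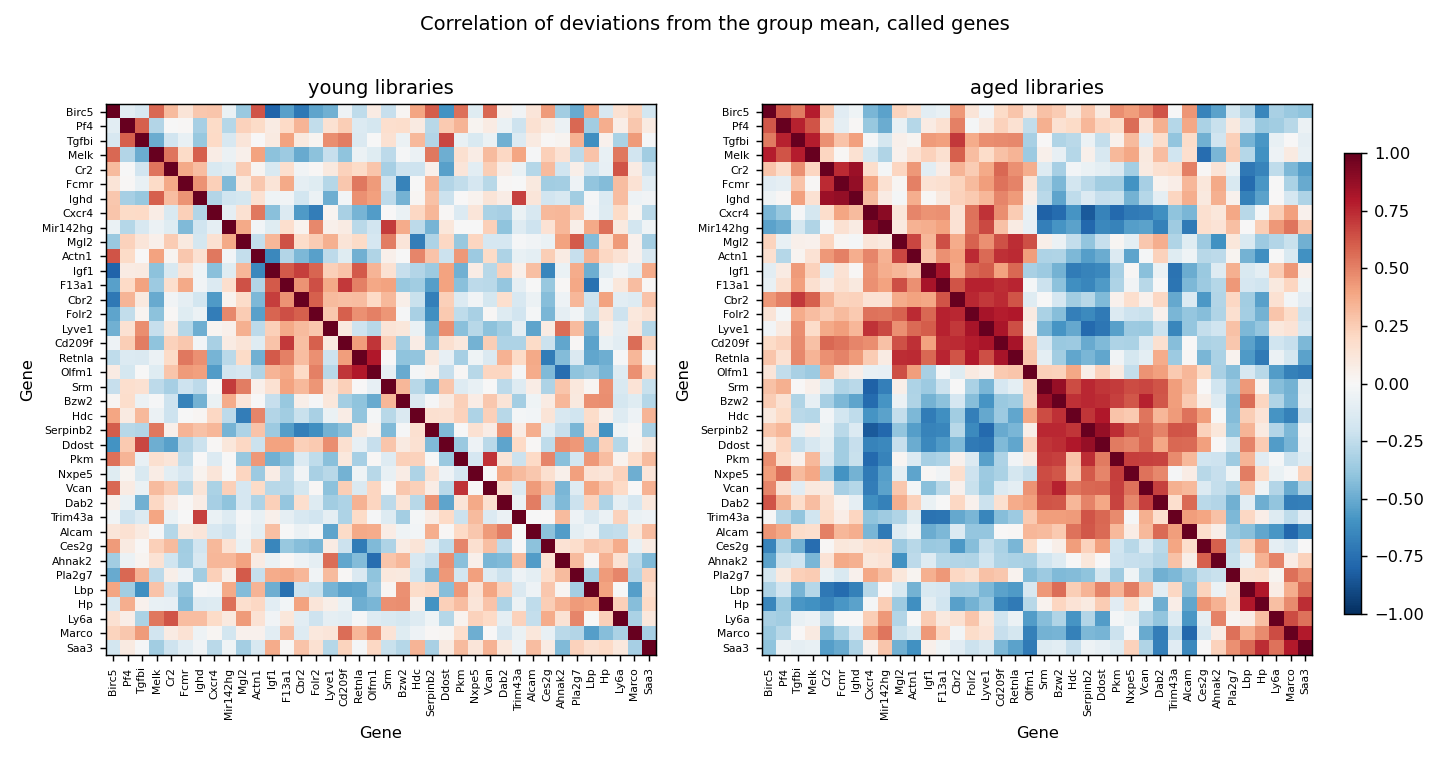
Pearson's r (colour, from blue at -1 to red at 1) between the deviations of the 38 called genes from their group means, over 21 young (left) and 21 aged libraries (right), with the genes in the same order on both axes. Of the 703 pairs, 98 lie above 0.5 and 82 below -0.5 in aged cells, against 38 and 32 in young cells. The genes were chosen in these same libraries for a larger spread in aged cells. Weaker r in young cells may thus be built in, and pairs of uncalled genes were not counted.

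Gene lists were read by the share of their members with the larger pooled SD in aged cells, beside 66.3% and a median ratio of 1.15-fold over all tested genes, and no list was tested as a set. At an unadjusted p under 0.05 by limma, 8.59% of all tested genes were more spread in aged cells. Of the 22 genes of resident macrophages 21 were more spread in aged cells (median 2.01-fold), and Lyve1, Saa3 and Serpinb2 were called. Of 15 complement genes 14 were (median 1.84-fold, 0 called by limma, 8 at an unadjusted p under 0.05). Of 17 genes of monocyte-derived macrophages 14 were (median 1.68-fold, with Folr2, F13a1 and Retnla called), and of the 20 macrophage core genes 19 were (median 1.61-fold, 0 called by limma, 7 at an unadjusted p under 0.05). Protein folding in the endoplasmic reticulum was covered by 24 genes, of which 22 were (median 1.58-fold, 0 called by limma, 10 at an unadjusted p under 0.05), among them Xbp1, a transcription factor of the unfolded protein response, with pooled SDs of 0.111 in young and 0.263 in aged cells (limma adjusted p = 0.162). The lists share members, such as Itgam in complement and core, and they differ in their mean reads, on which the ratio depends.

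Clock genes, immediate early genes and ribosomal protein genes had median ratios nearer to that of all genes than the macrophage lists had. Of 16 clock genes 13 were more spread in aged cells (median 1.33-fold), and 0 were called by limma, with 2 at an unadjusted p under 0.05. Over all tested genes 8.59% reached that p with the larger spread in aged cells. Bmal1, listed as Arntl, had pooled SDs of 0.245 in young and 0.295 in aged cells, Nr1d1 0.924 and 1.06, Dbp 0.480 and 0.685, and Per2 0.494 and 0.370. Of 26 immediate early genes 22 were more spread in aged cells (median 1.23-fold, 0 called by limma, 3 at an unadjusted p under 0.05), with Junb at 0.149 and 0.324 (adjusted p = 0.143) and Fos at 0.496 and 0.501. Of 44 ribosomal protein genes 25 were (median 1.13-fold).

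Heat shock and interferon lists lay on the young side, and 0 of their members were called in that direction by limma, with 1 chaperone, 0 interferon-stimulated genes and 1 GTPase at an unadjusted p under 0.05. Over all tested genes 1.22% reached that p with the larger spread in young cells. Of 21 heat shock chaperones 9 were more spread in aged cells (median 0.935-fold), with Hspa1b at 0.782 in young and 0.515 in aged cells (limma adjusted p = 0.469). Of 34 interferon-stimulated genes 14 were (median 0.960-fold), and of 11 GTPases induced by interferon-gamma 2 were (median 0.869-fold), with Gbp9 at 0.939 and 0.433 (limma adjusted p = 0.304). Hbb-bs, a haemoglobin chain and a sign of red blood cells, had the largest pooled SD in young cells, at 3.46 against 2.03 in aged cells, with 1334 reads in 1 young library of ZT0, 1276 in 1 of ZT4 and 2485 in 1 of ZT8 and a median of 6.89 over the young libraries.

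**Figure D5:**
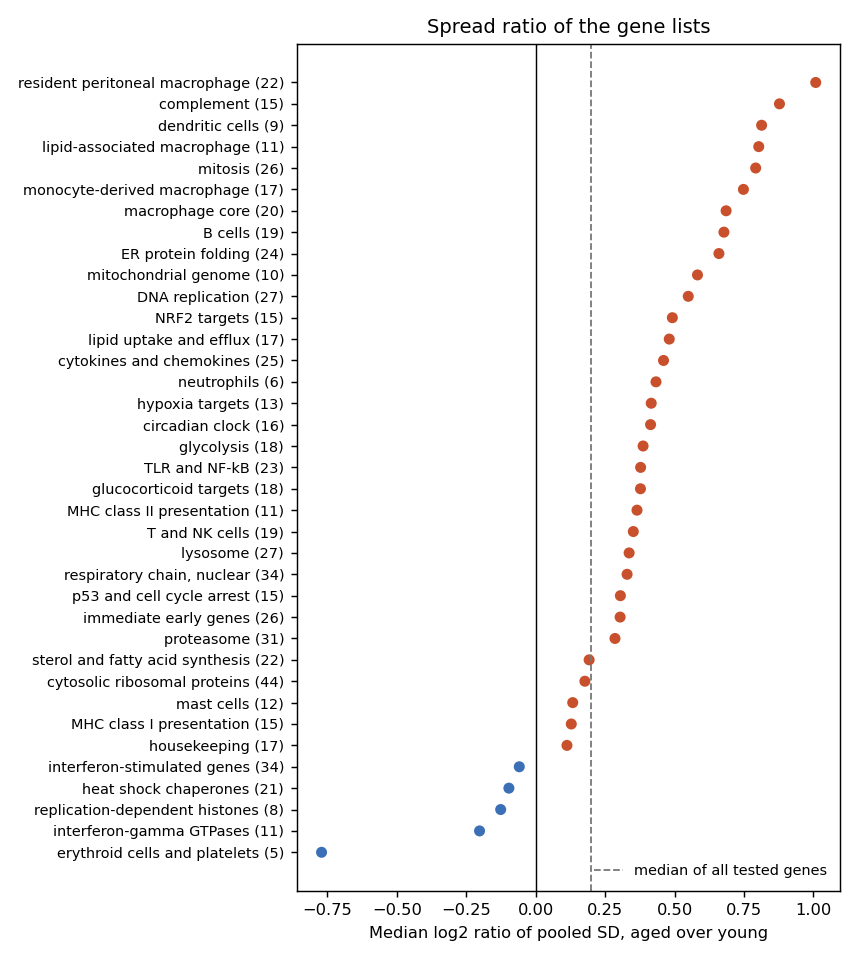
Median over the tested members of each gene list (number in brackets) of the log2 ratio of pooled SD, aged over young (horizontal axis), with the solid line at equal spread and the dashed line at the median of all tested genes, 0.20. The list of resident macrophages lies highest at 1.01, and erythroid cells and platelets lowest at -0.77.

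The lowest p-values for larger spread in young cells belonged to Wipf3, an actin regulator, with pooled SDs of 1.66 in young and 0.506 in aged cells (limma adjusted p = 0.0647), Ddx59, an RNA helicase, with 0.692 and 0.235 (adjusted p = 0.0903), Atxn2l, an RNA-binding protein, with 0.456 and 0.189 (adjusted p = 0.108), and Ly86, a partner of a toll-like receptor homologue, with 0.604 and 0.335 (adjusted p = 0.118). Wipf3 had a mean of 3.98 reads in young cells and 53.8 in aged cells, so its spread in young cells rests on few reads. Ly86 had no such gap, with 407 and 437 as medians of the reads in aged and young libraries, and its young libraries of ZT4 held 387, 962 and 306 reads against 546, 419 and 343 in aged ones.

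Among all genes, the widest ranges were not the lowest p-values. Chil3, a chitinase-like secreted protein of activated macrophages, had a lowest value of 17.7, a median of 65.2 and a highest value of 17210 reads in aged libraries, and of 14.6, 36.3 and 174 in young ones. At ZT16 the aged libraries held 1679, 46.8 and 17210 reads. Its pooled SD was 0.683 in young and 2.24 in aged cells, yet the SD was larger in aged cells at 4 of 7 times and the test was not passed (limma adjusted p = 0.643). The test weighs each time alike, so that a single group of wide spread does not make a call.

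Promoters of the called genes were searched because a TATA box is known to go with strongly variable transcription. Of the 38 genes, 31 had a promoter sequence in the RefSeq table (GRCm38.p6), and 4 of these (12.9%) had TATAAA on the sense strand starting 40 to 20 bases before the start, namely Cd209f, Cxcr4, Retnla and Serpinb2. The same held for 1.34% of the 9015 matched tested genes and for 1.99% of all 32851 promoters in the table. The called genes had more reads, with a median of 689 against 236 for the matched tested genes. Among genes of at least 300 reads, 2 of 21 called (9.52%) and 1.45% of 3861 matched tested genes had TATAAA in place. TATAAA on either strand anywhere in the window from 250 bases before to 50 after the start was in 12.9% of called and 8.49% of matched tested genes. The starts of Cd209f and Retnla lie within the gene as GENCODE draws it, so 2 of the 4 matches depend on the annotation. Where the 100 bases before the RefSeq start lie outside the GENCODE gene, 2 of 10 called genes (20%) and 50 of 4414 tested genes (1.13%) had TATAAA in place. Tested genes with TATAAA in place had a median pooled SD of 0.248 in young and 0.348 in aged cells (n = 121, ratio 1.23-fold), against 0.251 and 0.291 without (n = 8894, ratio 1.15-fold). With at least 300 reads the ratios were 1.34-fold (n = 56) and 1.22-fold (n = 3805). The match describes letters and shows no binding.

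The 100 bases before the RefSeq start are printed for the 2 of these 4 genes whose stretch lies outside the gene in GENCODE too, Cxcr4 (chr1:128592300-128592399, minus strand) and Serpinb2 (chr1:107511323-107511422, plus strand), both GRCm38.p6, 5′ to 3′ on the gene's strand with TATAAA in capitals.
Cxcr4: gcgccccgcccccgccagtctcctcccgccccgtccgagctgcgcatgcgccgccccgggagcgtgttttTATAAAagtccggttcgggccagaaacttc
Serpinb2: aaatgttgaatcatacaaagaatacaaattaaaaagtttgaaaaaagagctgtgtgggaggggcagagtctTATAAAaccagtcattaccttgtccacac
The motif starts 30 bases before the start in Cxcr4 and 29 in Serpinb2. The 2 genes deviated in opposite directions within aged groups, with an r of -0.84 over 21 libraries. Over the 21 young libraries their r was 0.33.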

How the data were processed

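The files hold 1 normalized signal value per gene and library, in 1 deposited table per age, which the authors made with DESeq2 after alignment with STAR to mm10, as far as the submitters' processing notes name tools and build. Of the counter, the annotation and the tool versions nothing is stated in the labels or headers. Libraries are of a QuantSeq 3′ end kind, per the labels' protocols. Within a library every value above 0 was a whole multiple of 1 step (100% of values within 0.001), which is the pattern of read counts over a size factor. The authors' size factors recovered in this way were 0.769 to 1.43 (young) and 0.592 to 1.84 (aged). All 42 columns were put on a common scale by median-of-ratios factors, transformed to log2(value + 1) and kept at a mean of at least 10. Group SDs of 3 libraries were tested with limma 3.58.1 in R 4.3.3 (trend, offset 0.1, time as factor). EdgeR 4.0.16 served as an alternative. Positions are of GENCODE M21 on GRCm38. Of 47643 identifiers 47224 matched a symbol. Scripts were tested on simulated data. No 2 libraries of a group agreed within sampling noise. Replicate numbers did not pair the ages: 0 of 21 same-number pairs had an r over 0.1. Reads were counted without molecular identifiers, so that they are not all separate molecules. Genes named are the 12 lowest p-values in each direction, the 12 largest pooled SDs of each age, 3 of lowest p per list, all members of the clock, chaperone and immediate early lists and, beyond this rule and after their values were seen, the other called genes. Members and lists were chosen with earlier results of these data known.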

Additional observations from a re-analysis of the deposited data

How the results depend on the processing

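The larger typical spread in aged cells kept its direction in every setting tried. The difference in median SD between the ages passed the exact permutation test except with upper quartile scaling (0.0352), with the B, T and mast cell scores regressed out (0.0150), without ZT0 (0.0348), ZT8 (0.0310), ZT12 (0.0352), ZT16 (0.0309), ZT20 (0.0349) or ZT24 (0.0377), and, chosen after seeing the data, without ZT4 and ZT8 together (0.0389); with 6 times the smallest p is 0.03125. Without ZT4 and ZT8 together, the exact p of 0.0625 was the smallest possible, so that setting could not pass whatever the values. Leaving out each library gave 0.0298 to 0.0419, with an exact p of 0.0625 without aged ZT0 replicate 2. The median log2 ratio was 0.162 to 0.238 and the share of genes 63.3% to 68.4% in these fits; the share was 70.9% at a mean of at least 100, 61.7% with the smallest difference of 3 and 57.5% with the scores regressed out. The 38 calls became 16 with upper quartile scaling, 23 at a mean of at least 1 (8 of the 38 among them), 19 and 59 with an offset of 0.05 and 0.2, 5 on the SD without a log, 21 with the smallest difference of 3 (12 of the 38 among them), 790 with the absolute deviation of each library, 3 without the trend, 25 with edgeR (10 of the 38), 14 with counting variance subtracted, 5 among genes of like level, 5 with the scores regressed out, 72 at a threshold of 0.10, and 123, 7, 25, 17 and 16 without ZT4, ZT8, ZT12, ZT16 and ZT24. Leaving out each library gave 8 to 53. Larger spread in young cells was called for 0 to 1 genes in these fits, for 1 with a pseudocount of 0.5 or 5, at a mean of at least 1, with an offset of 0.2, without the trend, without ZT20 and, added later, without the library of largest deviation in each age (young ZT4 replicate 3 and aged ZT8 replicate 1), for 2 at a threshold of 0.10, 7 by the ratio of variances and 117 with absolute deviations. A replicate block, although the numbers did not pair the samples, gave 80 and 2 calls, 30 of the 38 among them. The uncalled gene Pik3ip1 turned to -0.13 with the smallest difference of 3. The cause of these shifts was not tested, apart from fewer groups or genes tested.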
